A study of Mus musculus with 12 samples.

Results

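A set of 10 genes from the hippocampal granule neuron lineage was followed across 4 genotypes of cultured mouse neural progenitor cells (mNPCs): Prox1, Eomes, Tbr1, Bcl11b, Zbtb20, Nfia, Nfib, Nfix, Neurod1 and Dcx. They are 10 of the 18911 genes in the table and were chosen by name, as dentate and hippocampal lineage factors together with Dcx, at a time when earlier results of these data were known. All 10 were found by Ensembl identifier, and all 10 passed the filter on low counts. The cells had been grown from the hippocampus of newborn pups (postnatal day 0), and their poly(A) RNA was sequenced. The mice were on a C57BL/6J background. Kmt2a+/+ cells carried 2 normal copies of Kmt2a, which encodes a histone H3 lysine methyltransferase. Kmt2a+/LSL cells carried 1 normal copy and 1 copy with a loxP-stop-loxP (LSL) cassette in its first intron, which ends the transcript early until Cre recombinase removes it. A Cre transgene under nestin control, which acts in neural cells, was carried by Nes-Cre+/- Kmt2a+/LSL cells, whose cassette had thus been exposed to Cre, and by the Cre controls, Nes-Cre+/- Kmt2a+/+. Each genotype had 3 libraries. The authors call them biological replicates, but the labels do not say whether the libraries came from separate pups. The p-values therefore measure the spread between libraries, which may in part be technical. The comparisons address whether the LSL allele altered the lineage factors, and whether cells in which nestin-Cre had acted differed from those with the allele intact.

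As background, the dentate gyrus builds granule neurons from radial glia-like progenitors through a series of transcription factors. The nuclear factor I proteins (NFIA, NFIB and NFIX) and ZBTB20 act in hippocampal progenitors and in the glial lineage, EOMES (TBR2) marks intermediate progenitors, and NEUROD1 drives the differentiation of granule neurons. PROX1 is the homeobox factor that specifies and keeps granule identity, DCX is a microtubule-binding protein of migrating and immature neurons, and TBR1 and BCL11B (CTIP2) are factors of postmitotic glutamatergic neurons. In bulk RNA, a smaller number of cells that express a gene and less RNA per cell cannot be told apart.

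The targeted gene followed its labels. Kmt2a stood at 6721 to 7194 normalized counts (estimated counts divided by effective library size and scaled to the mean library) in Kmt2a+/+ libraries and at 3972 to 3991 in Kmt2a+/LSL libraries. With nestin-Cre it stood at 6205 to 6814 in Nes-Cre+/- Kmt2a+/LSL and, without the LSL allele, at 6777 to 7427. Library totals lay between 18280008 and 28596919 estimated counts, and 3 counts, taken as the floor, equalled 0.105 to 0.164 CPM (counts scaled to library size). All 9 listed neural stem cell markers were measured, from Fabp7 (58220 to 214600), Nes, the intermediate filament nestin (7578 to 18160), and Sox2 (5408 to 9281) down to Hopx (165.3 to 744.8). Hes5 spanned 51.3 to 3822 in Kmt2a+/+, with a median of 2051, and lay at or above 1097 in the other genotypes. Of 8 oligodendrocyte lineage genes, the early factors Olig1 (16890 to 99270) and Olig2 (9463 to 26750) were abundant, while Sox10 (4.28 to 250.5) and the myelin genes Mbp (25.6 to 57.8) and Mog (0.00 to 6.82) were low. Outside Kmt2a+/+, Olig1 lay at or above 61450, Olig2 at or above 16590 and Sox10 at or above 42.95. The astrocyte genes Slc1a2 (12670 to 34330) and Aldh1l1 (5439 to 24330) were abundant as well. In contrast, the summed levels of microglial (9.05 to 51.3) and of fibroblast and pericyte markers (12.8 to 59.1) were low in every library, and endothelial markers summed to 104.1 to 335.8.

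One library stood apart. Kmt2a+/+ replicate 1 had the lowest total and the fewest genes detected (15176, against up to 17073), and its median correlation with its own genotype, over the log2 CPM of all genes, was the lowest (0.903, against 0.939 to 0.984). Its level followed the base composition of the transcripts. Relative to the median of the other 11 libraries, of 5 equal bins of genes by GC content, the bin with the least G and C (mean 41.9%) lay higher by 0.83 on the log2 scale, and the bin with the most (mean 58.3%) lay lower (log2 deviation -1.70), with 2323 genes in each. The lineage factors span this range, from 41.6% in Dcx and 42.5% in Nfia to 56.2% in Eomes and 57.9% in Nfix. To show the contrast, a stretch of 120 coding bases from the most and the least GC-rich of them is given, each chosen as the stretch closest to the gene's mean, with G and C in capitals. The Nfix stretch (GRCm38, chr8:84772196-84772315, minus strand, coding exon) holds 57.5% and the Dcx stretch (chrX:143931181-143931300, minus strand, coding exon) 43.3% of these bases.
Nfix: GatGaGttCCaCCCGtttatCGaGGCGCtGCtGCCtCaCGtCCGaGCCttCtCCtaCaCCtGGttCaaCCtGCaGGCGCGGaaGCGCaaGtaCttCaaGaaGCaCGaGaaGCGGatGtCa
Dcx: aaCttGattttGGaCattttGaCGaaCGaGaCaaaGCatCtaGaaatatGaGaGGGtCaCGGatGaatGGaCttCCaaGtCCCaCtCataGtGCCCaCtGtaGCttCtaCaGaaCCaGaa

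In Kmt2a+/+ replicate 1, Nfix lay lower by 1.66 on the log2 scale than the median of the other libraries, at 4371 normalized counts, and Tbr1 lay lower by 2.05, at 12.8. Eomes was lower by 1.12. The AT-rich members went the other way, with Zbtb20 higher by 0.81, Nfib by 0.75, Dcx by 0.71 and Nfia by 0.39. Bcl11b (lower by 0.24 at 55.4% GC) and Neurod1 (lower by 0.84 at 43.6%, with 1 count in that library) departed from the course of the other genes, and the deviation of Nfia lay below the middle 50% of genes of like GC content. Tbr1 also lay below that middle 50%, and Zbtb20 slightly above it. With an offset for GC content, the deviation of Nfix became 0.05, that of Dcx -0.04 and that of Zbtb20 0.42, while Tbr1 still lay at -1.33, Bcl11b moved to 0.91, Nfia to -0.42 and Neurod1 to -2.05. Fold changes that this library moves by much are therefore given without it or with the offset as well. Ranges of levels include it unless stated. Kmt2a+/+ replicate 3, which stays in when replicate 1 is left out, was tilted the other way. Its least GC-rich of the 5 bins lay lower (log2 deviation -0.44) and its most GC-rich bin higher by 0.365. It was the lowest library for Prox1, Zbtb20, Nfia, Nfib and Dcx.

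**Figure D1:**
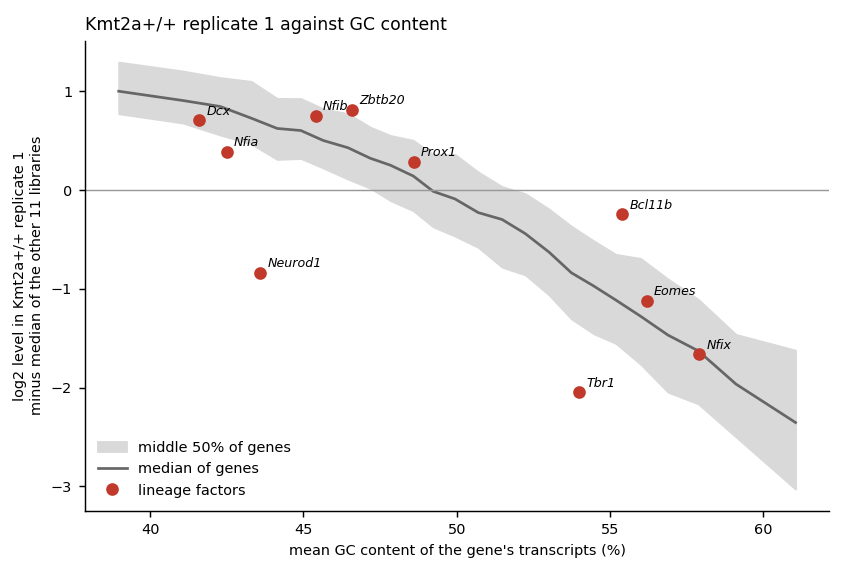
Log2 level in Kmt2a+/+ replicate 1 minus the median of the other 11 libraries (vertical axis) against the mean GC content of a gene's transcripts in percent (horizontal axis). The line and band give the median and the middle 50% of genes with a mean of at least 50 normalized counts, and the red points the 10 lineage factors: Nfix, at 57.9% GC, sat on the line at -1.66, and Tbr1 fell below the band at -2.05.

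The 10 genes covered a wide range of expression. Per kilobase of principal transcript, Zbtb20 had the highest mean level (133.7 CPM per kb, above 97.4% of all genes), followed by Nfix (98.0), Nfib (53.5), Nfia (24.1), Prox1 (18.8) and Dcx (9.05). Bcl11b (0.836), Tbr1 (0.533), Eomes (0.227) and Neurod1 (0.0747, above 9.8% of genes) formed a low group. Thus the progenitor and glial factors lay in the upper part of all genes, while the intermediate progenitor factor Eomes and the differentiation factor Neurod1 lay near the bottom. Prox1 stood above 76.3% of all genes. The order held in 12 of 12 libraries for Nfib over Nfia, Nfia over Prox1, Prox1 over Dcx, Dcx over Bcl11b and Eomes over Neurod1. It held in 11 of 12 libraries for Nfix over Nfib, Bcl11b over Tbr1 and Tbr1 over Eomes, and in 9 of 12 for Zbtb20 over Nfix. The ranges over libraries overlapped for every pair of neighbours except Nfib with Nfia and Dcx with Bcl11b. The place of Zbtb20 and of Dcx depended on the length used. Divided by the length of all annotated exons, Zbtb20 (13.4 CPM per kb) lay below Nfix (73.0) in 12 of 12 libraries, and Dcx (0.954) was above Bcl11b in 7 of 12.

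**Figure D2:**
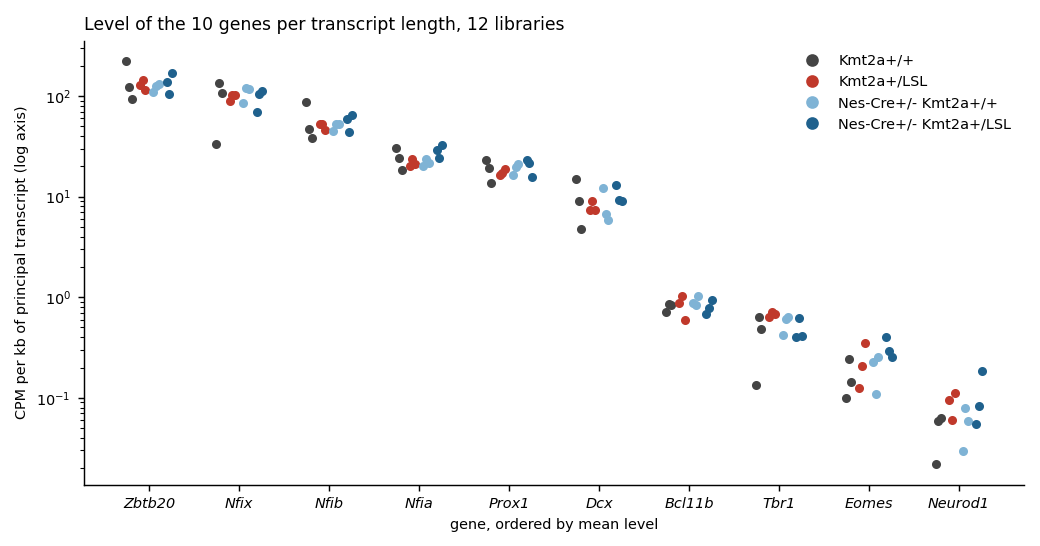
Level of each gene in CPM per kilobase of principal transcript (log axis), with 1 point per library, coloured by genotype. Zbtb20, Nfix, Nfib, Nfia, Prox1 and Dcx lay at or above 4.71 in every library, and Bcl11b, Tbr1, Eomes and Neurod1 at or below 1.04.

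The lineage factors showed no difference that passed the test between genotypes. By edgeR's quasi-likelihood F-test over 17076 genes, 0 of 10 passed an adjusted p of 0.05 (0% of all genes did) in any of 4 pairwise comparisons, in the change of the LSL effect on adding nestin-Cre, or in the test of any difference over the 4 genotypes. The test was sparing for this table: Kmt2a itself, with a log2 fold change of -0.80 (SE 0.12) in Kmt2a+/LSL over Kmt2a+/+, had an unadjusted p of 4.34e-05 and an adjusted p of 0.28 by edgeR. None of the 10 had an unadjusted p under 0.05 either. Of all genes, 1.79% had one for Kmt2a+/LSL over Kmt2a+/+ and 1.4% for the Cre control over Kmt2a+/+. The share was 1.61% for Nes-Cre+/- Kmt2a+/LSL over Kmt2a+/LSL, 1.11% for the same cells over the Cre control, 1.73% for the change of the LSL effect and 1.15% over the 4 genotypes. DESeq2 and limma-voom likewise put 0 of 10 at an adjusted p under 0.05. At an unadjusted p under 0.05, limma-voom had 1 of 10 (Nfia) when Nes-Cre+/- Kmt2a+/LSL was set against Kmt2a+/LSL and when it was set against the Cre control, and DESeq2 had 1 of 10 (also Nfia) for the change of the LSL effect. Of all 17076 genes, limma-voom had 689 and 851 at that level in its comparisons and DESeq2 had 314. Over all genes, DESeq2 put 3 to 10 at an adjusted p under 0.05 and limma-voom at most 2. The median log2 fold change of the 10 genes was -0.02 for Kmt2a+/LSL over Kmt2a+/+ (5 of 10 above 0) and 0.09 for the Cre control over Kmt2a+/+ (6 of 10). It was 0.16 for Nes-Cre+/- Kmt2a+/LSL over Kmt2a+/LSL, 0.16 over the Cre control and 0.20 for the change of the LSL effect, with 7 of 10 above 0 in each, and these comparisons share libraries. The median of all genes lay between 0.00 and 0.01. Without Kmt2a+/+ replicate 1, the first median was 0.21 (8 of 10 above 0) and that for the change of the LSL effect 0.06 (5 of 10). Kmt2a+/+ then rested on replicates 2 and 3, of which replicate 3 was tilted towards GC-rich transcripts. With all libraries and the GC offset, the first median was -0.07 (3 of 10 above 0).

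**Figure D3:**
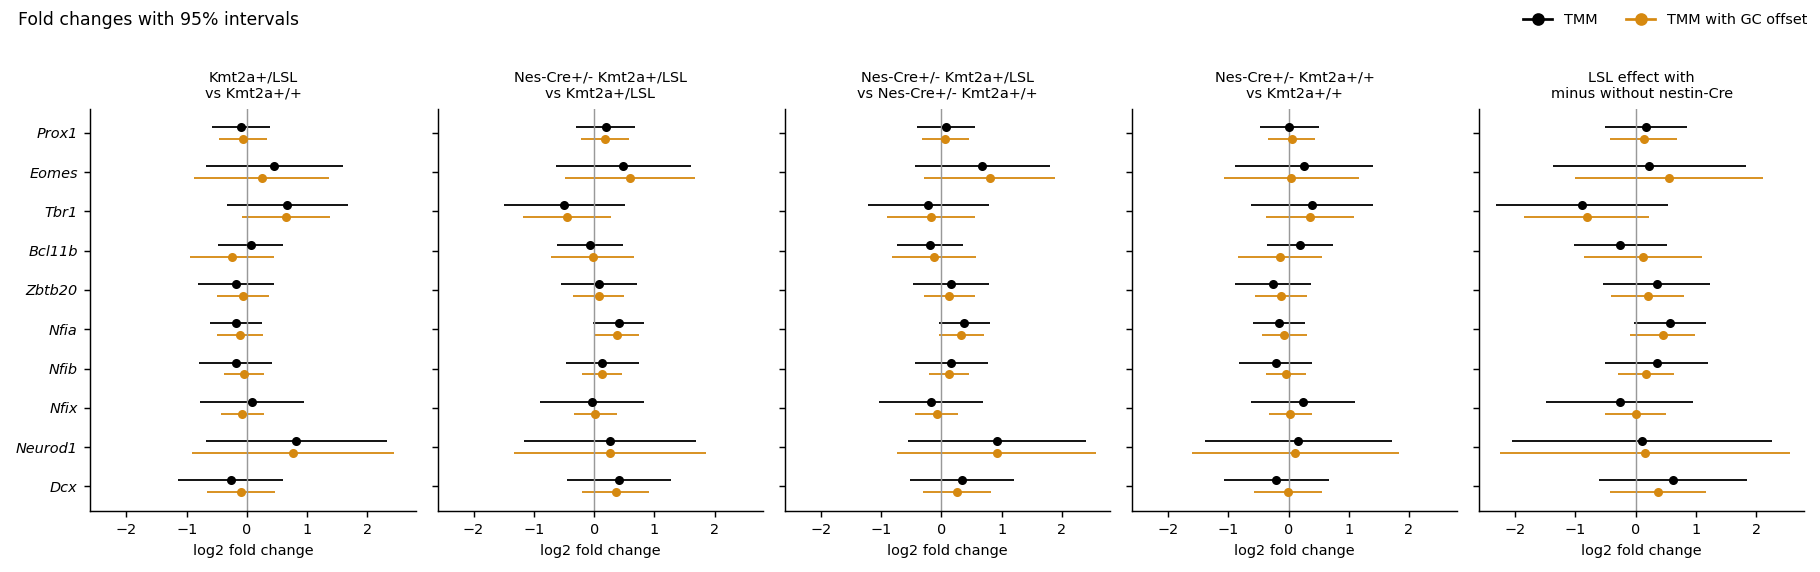
Log2 fold change of each gene (horizontal axis) with its 95% interval in 4 comparisons and for the change of the LSL effect on adding nestin-Cre, from edgeR with TMM normalization (black) and with an added offset for GC content (orange). Every black interval includes 0, and the Nfia intervals come closest to leaving it, as for Nes-Cre+/- Kmt2a+/LSL vs Kmt2a+/LSL (-0.02 to 0.83).

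Prox1 passed the test in 0 of the comparisons. It lies on chromosome 1 (GRCm38, chr1:190118035-190170714, minus strand). In the order of replicates 1, 2 and 3, the Kmt2a+/+ libraries held 1824, 1518 and 1081 normalized counts, the Kmt2a+/LSL libraries 1291, 1365 and 1494, the Nes-Cre+/- Kmt2a+/+ libraries 1279, 1538 and 1654, and the Nes-Cre+/- Kmt2a+/LSL libraries 1832, 1679 and 1219. The groups overlapped fully, and the highest library lay 1.69-fold above the lowest. Mean levels were 1474 ± 373 (SD, n = 3) in Kmt2a+/+ and 1383 ± 102 in Kmt2a+/LSL, a ratio of 0.938-fold (95% interval 0.672 to 1.31). On the log2 scale this was -0.09, and 0.09 without Kmt2a+/+ replicate 1. The ratio of Nes-Cre+/- Kmt2a+/LSL over Kmt2a+/LSL was 1.14-fold (95% interval 0.816 to 1.59), and its log2 value ranged from 0.067 without Nes-Cre+/- Kmt2a+/LSL replicate 1 to 0.34 without replicate 3 of that genotype. Changes of Prox1 within these intervals were not detectable with 3 libraries per genotype. Prox1 exons overlap those of Prox1os on the opposite strand, and other genes share 1.23% of the words of 31 bases, the unit by which kallisto matches reads, in Prox1.

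Zbtb20, a zinc-finger repressor of the hippocampal field, lies on chromosome 16 (chr16:42875881-43642602, plus strand). Across replicates 1, 2 and 3, the Kmt2a+/+ libraries held 16497, 9129 and 6899 normalized counts, the Kmt2a+/LSL libraries 9611, 10597 and 8460.4, the Nes-Cre+/- Kmt2a+/+ libraries 8049.7, 9380.0 and 9665, and the Nes-Cre+/- Kmt2a+/LSL libraries 10159, 7776 and 12408. The highest and the lowest library both belonged to Kmt2a+/+, and the other 3 genotypes lay between them. Kmt2a+/LSL over Kmt2a+/+ gave a log2 fold change of -0.18 (SE 0.29, 95% interval -0.81 to 0.45, unadjusted p = 0.54), and one of 0.26 without Kmt2a+/+ replicate 1. Nes-Cre+/- Kmt2a+/LSL over Kmt2a+/LSL gave 0.08 (SE 0.29, 95% interval -0.55 to 0.71, unadjusted p = 0.78).

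Of the nuclear factor I genes, Nfia came closest to a difference. It lies on chromosome 4 (chr4:97772734-98118874, plus strand). For Nfia, the Kmt2a+/+ libraries held 6981, 5526 and 4238 normalized counts, the Kmt2a+/LSL libraries 4588, 5335 and 4832, the Nes-Cre+/- Kmt2a+/+ libraries 4639, 5441 and 4928, and the Nes-Cre+/- Kmt2a+/LSL libraries 6676, 5509.8 and 7374. All 3 Nes-Cre+/- Kmt2a+/LSL libraries lay above all 3 Kmt2a+/LSL libraries and above all 3 Nes-Cre+/- Kmt2a+/+ libraries, while they overlapped with Kmt2a+/+. Nes-Cre+/- Kmt2a+/LSL averaged 6519.8 ± 942, Kmt2a+/LSL 4918 ± 381 and the Cre control 5003 ± 406 (SD, n = 3 each). This gave a log2 fold change of 0.41 (SE 0.19, 95% interval -0.02 to 0.83, unadjusted p = 0.059) over Kmt2a+/LSL and of 0.38 (SE 0.19, 95% interval -0.04 to 0.81, unadjusted p = 0.074) over the Cre control, with an adjusted p of 1 in both. The LSL effect with nestin-Cre minus that without it was 0.56 (SE 0.27, 95% interval -0.04 to 1.17, unadjusted p = 0.063), and with single libraries left out it ranged from 0.36 (unadjusted p = 0.10) without Kmt2a+/+ replicate 1 to 0.73 (unadjusted p = 0.011) without Kmt2a+/+ replicate 3. It was 0.67 (unadjusted p = 0.041) without Nes-Cre+/- Kmt2a+/LSL replicate 2. An exact two-sided permutation test gave p = 0.1 for each of the pairwise comparisons, the smallest that 3 against 3 libraries can give. Nfia was the only one of the 10 with a higher, non-overlapping range in these comparisons, where 3.54% and 3.1% of all genes had one. Against the Cre control, 0 of the 10 were lower without overlap, as 3.58% of all genes were. The unadjusted p fell under 0.05 in 4 of 16 alternative analyses of the first comparison (lowest 0.015) and in 4 of 15 of the second (lowest 0.025), and the lowest adjusted p over them was 0.9996 and 0.988. Nes-Cre+/- Kmt2a+/LSL replicate 1 was itself tilted by base composition, with the least GC-rich of the 5 bins higher by 0.36 and the most GC-rich bin lower (log2 deviation -0.42). With the GC offset, the log2 fold change was 0.38 (unadjusted p = 0.051) against Kmt2a+/LSL and 0.33 (unadjusted p = 0.079) against Nes-Cre+/- Kmt2a+/+. Without that library the first was 0.39 (unadjusted p = 0.11). Kmt2a+/+ replicate 1 belongs to neither comparison but enters the shared estimate of spread. With it left out of the edgeR fit, Nfia had 0.39 (SE 0.14, unadjusted p = 0.014, adjusted p = 1) over Kmt2a+/LSL and 0.38 (SE 0.14, unadjusted p = 0.018, adjusted p = 1) over the Cre control, where 3.89% and 3.23% of all genes had an unadjusted p under 0.05.

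Nfib lies on the same chromosome (chr4:82290173-82705750, minus strand). For Nfib, the Kmt2a+/+ libraries held 18502, 9896 and 7975 normalized counts, the Kmt2a+/LSL libraries 11040, 11136 and 9731, the Nes-Cre+/- Kmt2a+/+ libraries 9381, 10981 and 11001, and the Nes-Cre+/- Kmt2a+/LSL libraries 12392, 9271 and 13456. As with Zbtb20, both extremes were Kmt2a+/+ libraries. Kmt2a+/LSL over Kmt2a+/+ had a log2 fold change of -0.19 (SE 0.28, 95% interval -0.79 to 0.42, unadjusted p = 0.51), and Nes-Cre+/- Kmt2a+/LSL over Kmt2a+/LSL one of 0.14 (SE 0.28, 95% interval -0.47 to 0.74, unadjusted p = 0.63). The first was 0.25 (unadjusted p = 0.15) without Kmt2a+/+ replicate 1, and the second ranged from 0.026 without Nes-Cre+/- Kmt2a+/LSL replicate 3 to 0.28 without replicate 2 of that genotype.

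Nfix lies on chromosome 8 (chr8:84699876-84800344, minus strand). By replicate, the Kmt2a+/+ libraries held 4370.5, 17658 and 13993 normalized counts, the Kmt2a+/LSL libraries 11678, 13298 and 13374, the Nes-Cre+/- Kmt2a+/+ libraries 11294, 15778 and 15290, and the Nes-Cre+/- Kmt2a+/LSL libraries 9106, 13839 and 14569. Both extremes were again in Kmt2a+/+, here with replicate 1 lowest. For Kmt2a+/LSL over Kmt2a+/+ the log2 fold change was 0.09 (SE 0.39, 95% interval -0.77 to 0.95, unadjusted p = 0.82). It was -0.31 without Kmt2a+/+ replicate 1 and -0.08 (SE 0.16, 95% interval -0.43 to 0.28) with the GC offset, so its sign changed with these settings. With the offset, the libraries lay between 10158 and 15021, a 1.48-fold range against 4.04-fold without it, and the within-genotype SD of the log2 level went from 0.59 to 0.21.

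The shares of the nuclear factor I family were alike in most libraries. Per kilobase, Nfix made up a median of 51.1% of the summed level of Nfia, Nfib, Nfix and their paralog Nfic, Nfib 25.1%, Nfic 11.6% and Nfia 11.2%. Without Kmt2a+/+ replicate 1, the share of Nfix ranged from 39.0% to 58.9% and that of Nfib from 19.5% to 33.1%. In Kmt2a+/+ replicate 1 they were 20.8% and 55.0%, so that Nfib was above Nfix only in that library on this scale. Next to it, the share of Nfix was lowest in Nes-Cre+/- Kmt2a+/LSL replicate 1 (39.0%), the library with the next strongest tilt towards AT-rich transcripts. The summed level lay between 160.0 and 232.8 CPM per kb.

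**Figure D4:**
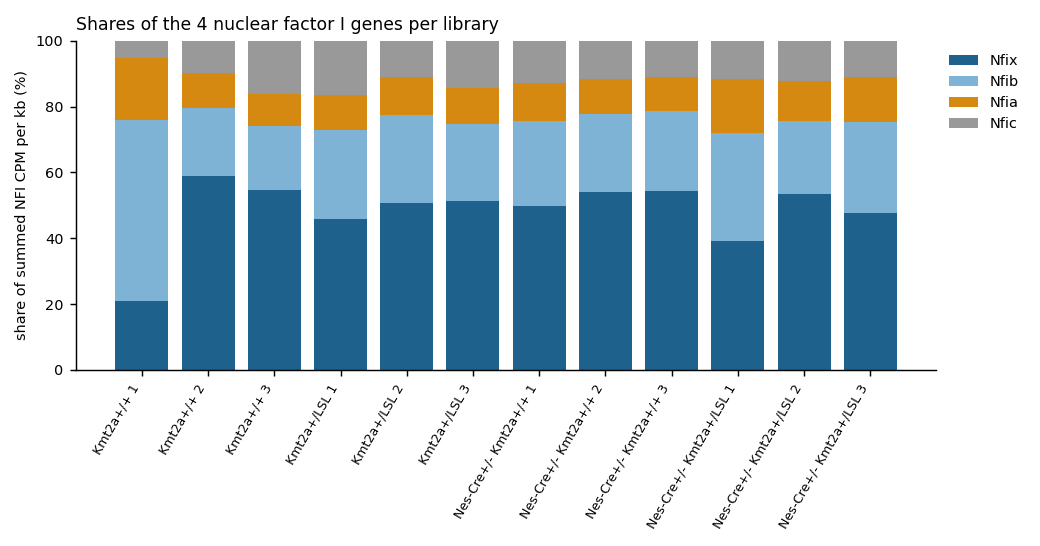
Share of each nuclear factor I gene in their summed CPM per kilobase of principal transcript (vertical axis, percent) in each of the 12 libraries (horizontal axis). Nfix took 39.0% to 58.9% in 11 libraries and 20.8% in Kmt2a+/+ replicate 1.

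The factors of intermediate progenitors and of granule neuron differentiation were close to the limit of detection. Eomes lies on chromosome 9 (chr9:118478212-118486132, plus strand) and had 6 to 29 estimated counts per library. For this gene, the Kmt2a+/+ libraries held 8.55, 20.95 and 12.3 normalized counts, the Kmt2a+/LSL libraries 10.8, 17.5 and 29.9, the Nes-Cre+/- Kmt2a+/+ libraries 19.5, 9.22 and 21.9, and the Nes-Cre+/- Kmt2a+/LSL libraries 34.6, 25.1 and 21.8. Genotypes overlapped in each of the 4 comparisons, by 21.8 against 21.9 in that of both nestin-Cre genotypes. Log2 fold changes were 0.68 (SE 0.51, 95% interval -0.44 to 1.80, unadjusted p = 0.21) for Nes-Cre+/- Kmt2a+/LSL over the Cre control and 0.46 (SE 0.52, 95% interval -0.68 to 1.59, unadjusted p = 0.4) for Kmt2a+/LSL over Kmt2a+/+. Single libraries carried the latter, which was 0.0049 without Kmt2a+/LSL replicate 3, 0.22 without Kmt2a+/+ replicate 1, 0.75 without Kmt2a+/LSL replicate 1 and 0.86 without Kmt2a+/+ replicate 2. The former was 0.39 without Nes-Cre+/- Kmt2a+/+ replicate 2. Neurod1 lies on chromosome 2 (chr2:79452521-79456751, minus strand) and had 1 to 11 estimated counts per library. In Neurod1, the Kmt2a+/+ libraries held 1.43, 3.81 and 4.11 normalized counts, the Kmt2a+/LSL libraries 6.28, 3.89 and 7.23, the Nes-Cre+/- Kmt2a+/+ libraries 1.95, 5.12 and 3.81, and the Nes-Cre+/- Kmt2a+/LSL libraries 3.58, 5.38 and 12.0. At this depth, the interval for Neurod1 was wide. For Kmt2a+/LSL against Kmt2a+/+ the ratio was 1.77-fold (95% interval 0.626 to 5), with a log2 value of 0.82, or 0.53 without Kmt2a+/+ replicate 1. In addition, other genes share 11.2% of the words of 31 bases in Neurod1, foremost Cerkl, whose exons overlap it on the same strand, so its few counts are uncertain.

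Among the genes of postmitotic neurons, Tbr1 lies on chromosome 2 (chr2:61802930-61814114, plus strand). For Tbr1, the Kmt2a+/+ libraries held 12.8, 61.0 and 46.1 normalized counts, the Kmt2a+/LSL libraries 61.1, 67.1 and 65.0, the Nes-Cre+/- Kmt2a+/+ libraries 39.9, 58.4 and 60.9, and the Nes-Cre+/- Kmt2a+/LSL libraries 38.2, 59.2 and 39.3. Kmt2a+/LSL libraries were the highest and closest together, and the one low value was Kmt2a+/+ replicate 1. The mean was 64.4 ± 3.09 for Kmt2a+/LSL and 39.9 ± 24.6 for Kmt2a+/+, and with nestin-Cre it was 45.6 ± 11.8 with the LSL allele and 53.1 ± 11.5 without it (SD, n = 3 each). Kmt2a+/LSL did not overlap with Kmt2a+/+, though the lowest of the former (61.1) and the highest of the latter (61.0) nearly touched. Tbr1 was the only one of the 10 that was higher without overlap in Kmt2a+/LSL, and 2.3% of all genes were, while 0 of the 10 were lower without overlap, as 1.76% of all genes were. It was also the only one lower without overlap in Nes-Cre+/- Kmt2a+/LSL than in Kmt2a+/LSL, where 3.57% of all genes were. The log2 fold changes were 0.67 (SE 0.46, 95% interval -0.34 to 1.68, unadjusted p = 0.17) and -0.49 (SE 0.46, 95% interval -1.50 to 0.51, unadjusted p = 0.3), with an adjusted p of 1 for both, and these comparisons share the Kmt2a+/LSL libraries. Without Kmt2a+/+ replicate 1 the first was 0.27 (unadjusted p = 0.40), and without Kmt2a+/+ replicate 2 it was 1.10 (unadjusted p = 0.051). With the GC offset it was 0.65 (unadjusted p = 0.077), and with the offset and the replicate number as a block 0.72 (unadjusted p = 0.039, adjusted p = 0.97). Against the Cre control, Nes-Cre+/- Kmt2a+/LSL gave -0.22 (SE 0.46, 95% interval -1.22 to 0.79, unadjusted p = 0.65), which went to -0.45 without its replicate 2 and to -0.10 without its replicate 1.

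Bcl11b lies on chromosome 12 (chr12:107910403-108003602, minus strand). Here the Kmt2a+/+ libraries held 139.7, 166 and 161 normalized counts, the Kmt2a+/LSL libraries 171, 201 and 115, the Nes-Cre+/- Kmt2a+/+ libraries 170.4, 163 and 198, and the Nes-Cre+/- Kmt2a+/LSL libraries 134, 151 and 180.2. The highest library lay 1.76-fold above the lowest, and both were Kmt2a+/LSL libraries. With the GC offset the range widened to 2.82-fold. Kmt2a+/LSL over Kmt2a+/+ showed a log2 fold change of 0.06 (SE 0.25, 95% interval -0.49 to 0.61, unadjusted p = 0.81), and -0.24 with the GC offset.

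Dcx lies on the X chromosome (chrX:143855842-143933311, minus strand). In replicate order, the Kmt2a+/+ libraries held 473, 290.5 and 150.5 normalized counts, the Kmt2a+/LSL libraries 233, 289.9 and 232, the Nes-Cre+/- Kmt2a+/+ libraries 391, 215 and 187, and the Nes-Cre+/- Kmt2a+/LSL libraries 419.9, 298 and 288. The highest and lowest values were both from Kmt2a+/+, and groups overlapped throughout. The log2 fold change was -0.27 (SE 0.40, 95% interval -1.14 to 0.59, unadjusted p = 0.5) for Kmt2a+/LSL over Kmt2a+/+ and 0.41 (SE 0.40, 95% interval -0.45 to 1.28, unadjusted p = 0.32) for Nes-Cre+/- Kmt2a+/LSL over Kmt2a+/LSL. The first was 0.20 without Kmt2a+/+ replicate 1 and -0.60 without Kmt2a+/+ replicate 3, and the second was 0.22 without Nes-Cre+/- Kmt2a+/LSL replicate 1. With the GC offset, the range over libraries narrowed from 3.14-fold to 2.04-fold.

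Nestin-Cre alone was compared through Nes-Cre+/- Kmt2a+/+ and Kmt2a+/+. The libraries of 0 of the 10 genes stood apart without overlap, where 2.82% of all genes were higher and 1.53% lower. Log2 fold changes ranged from -0.26 (SE 0.29, 95% interval -0.90 to 0.37, unadjusted p = 0.38) for Zbtb20 to 0.39 (SE 0.46, 95% interval -0.62 to 1.40, unadjusted p = 0.41) for Tbr1. Both changed sign without Kmt2a+/+ replicate 1, to 0.17 for Zbtb20 and -0.02 for Tbr1, and the 10 genes then ranged from -0.17 to 0.27.

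**Figure D5:**
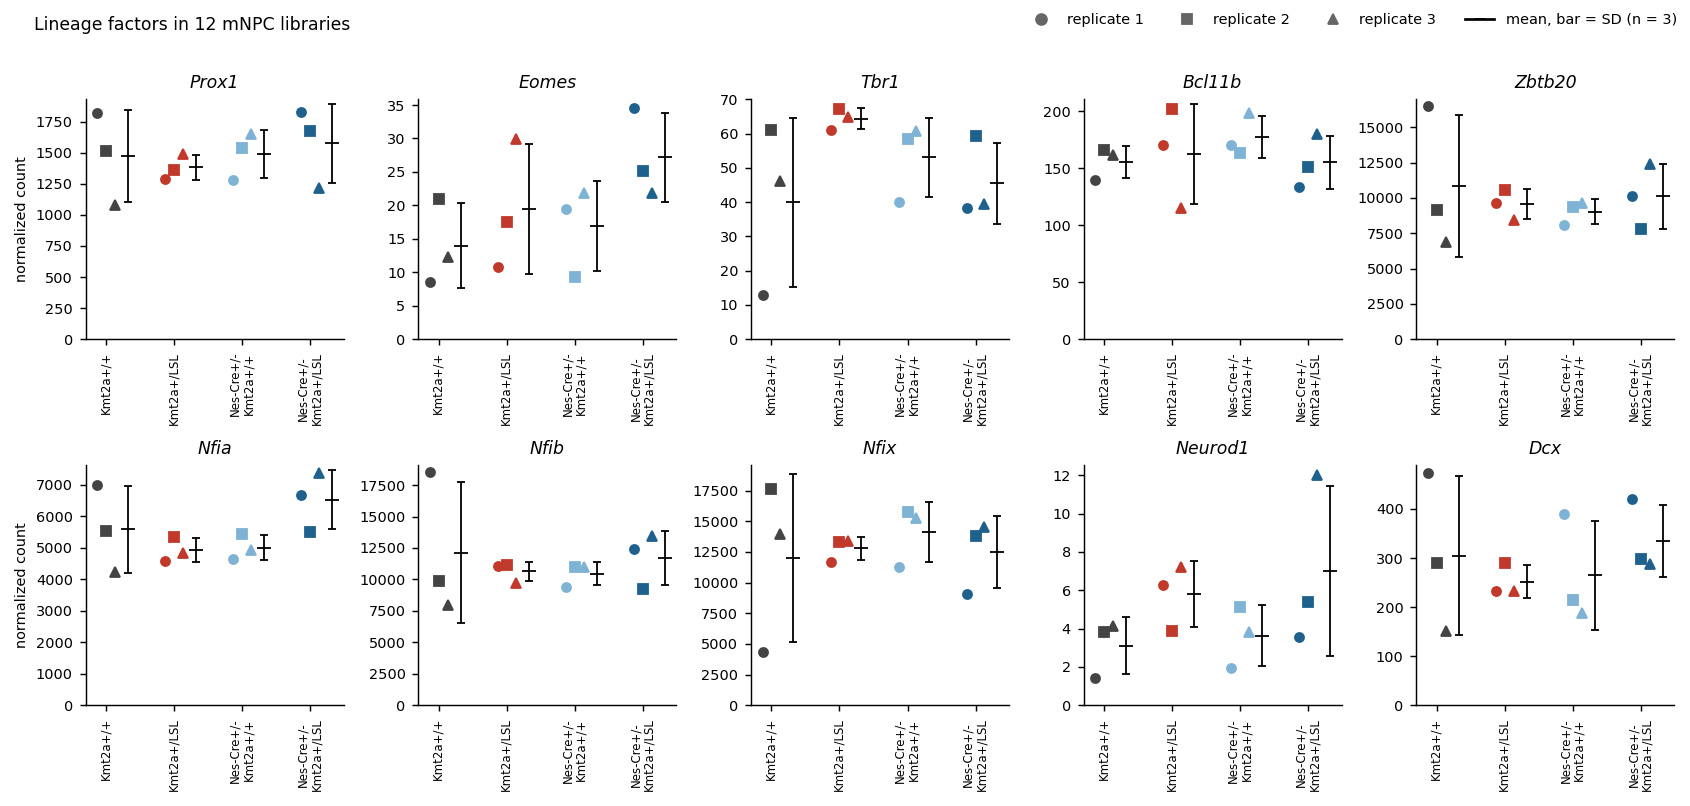
Normalized count of each gene (vertical axes, starting at 0) in the 3 libraries of each genotype, with the mean and SD (n = 3) beside them. In Nfia the Nes-Cre+/- Kmt2a+/LSL libraries (5510 to 7374) lay above those of Kmt2a+/LSL (4588 to 5335), and Kmt2a+/+ replicate 1 was the highest library for Zbtb20, Nfib and Dcx and the lowest for Nfix, Tbr1, Eomes and Neurod1.

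The genes around these factors were read from 6 lists with 57 different genes, of which 55 were tested. In each comparison, 0 of them passed an adjusted p of 0.05. At an unadjusted p under 0.05, 1 gene was lower in Kmt2a+/LSL than in Kmt2a+/+, 1 was higher in Nes-Cre+/- Kmt2a+/LSL than in Kmt2a+/LSL, and 0 were found in either comparison with the Cre control. This is 1 of 55, near the 1.79% and 1.61% of all genes at that level. Both were Bhlhe22, a bHLH factor of projection and dentate neurons, with log2 fold changes of -0.71 (SE 0.29, unadjusted p = 0.034 and adjusted p = 1 by edgeR) and 0.78 (SE 0.29, unadjusted p = 0.021 and adjusted p = 1 by edgeR), in comparisons that share the Kmt2a+/LSL libraries. The 10 pyramidal and cortical projection neuron genes had a median log2 fold change of -0.26 in Kmt2a+/LSL against Kmt2a+/+, with 9 of 10 below 0, beside 0.00 for all genes. It was -0.23 with 7 of 10 below 0 without Kmt2a+/+ replicate 1, and with the GC offset -0.27 with 9 of 10. Of the markers of GABAergic interneurons, another neuron type, 0 of 6 tested passed an adjusted p of 0.05. Their median was -0.60 with 6 of 6 below 0 (-0.71 with 5 of 6 without Kmt2a+/+ replicate 1), and the smallest unadjusted p was 0.016 for Sp9 (log2 fold change -1.05, SE 0.37, adjusted p = 1 by edgeR). Their summed level was 201.1 to 368.5 in Kmt2a+/LSL and 240.8 to 533.4 in Kmt2a+/+, which overlap, and their part in the result was not tested. The 10 hippocampal and dorsal telencephalic progenitor factors had a median of -0.16, with 8 of 10 below 0, and one of -0.26 with 8 of 10 without Kmt2a+/+ replicate 1. Pax6 (-0.31, SE 0.15) had the smallest p in that list, and 0 of 10 were at an unadjusted p under 0.05. With the GC offset the median was -0.31 with 9 of 10 below 0, and 2 of 10 were at that level beside 3.53% of all genes.

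The other lists were as follows in that comparison. The 9 tested intermediate progenitor and neuroblast genes had a median of -0.15, the 14 immature neuron genes 0.00, the 8 granule neuron maturation genes 0.06 and the 7 tested paralogs of the members 0.18. These medians were -0.37, -0.11, 0.65 and 0.00 without Kmt2a+/+ replicate 1, with 8, 14, 8 and 6 genes tested.

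For Nes-Cre+/- Kmt2a+/LSL over Kmt2a+/LSL, the median log2 fold change was 0.11 for the pyramidal and cortical genes (6 of 10 above 0) and 0.06 for the progenitor factors (9 of 10). It was 0.12 for the intermediate progenitor and neuroblast genes (5 of 9), -0.08 for the immature neuron genes (6 of 14), -0.27 for the granule neuron maturation genes (1 of 8) and -0.25 for the paralogs (2 of 7), beside 0.00 for all genes. The 6 GABAergic markers had a median of 0.66, with 6 of 6 above 0 and 0 at an adjusted p under 0.05. This comparison shares the Kmt2a+/LSL libraries with the one before. In these 6 lists, Neurod2 and the Eomes paralog Tbx21 were too low to be tested. Levels differed widely within the lists. Sox4 (13880 to 23170 normalized counts) and Sox11 (1845 to 4070), factors of committed progenitors and young neurons, were present, while Neurod6 and Neurod4, factors of differentiating neurons, stayed at or below 5.70 in every library. Map2 (23470 to 44910) and Dpysl3 (10860 to 15470) were abundant, whereas Stmn2, a growth cone protein of postmitotic neurons, reached at most 7.18. The granule maturation genes Calb1 (0.00 to 18.5), C1ql2 (0.00 to 8.76), Dsp (0.00 to 5.70) and Plk5 (0.00 to 4.87) were near 0, and Calb2 (0.00 to 30.97) and Tdo2 (4.11 to 29.9) were low. The other two of that list, Npnt (772.8 to 1852) and Glis3 (263.2 to 416.2), were present. Lhx2 (1486 to 3673) and Emx2 (779 to 1490), which pattern the telencephalon, were present, and Emx1, a dorsal telencephalic factor, stayed at or below 8.20.

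Over the 12 libraries, Zbtb20 and Nfib had nearly the same profile. The root mean square difference between their log2 levels, each centred on its own mean, was 0.059, and each was the closest of 11669 genes to the other. Among pairs of the 10, Nfia with Nfib (0.18), Zbtb20 with Nfia (0.20) and Prox1 with Nfia (0.24) came next. The genes closest to Prox1 were Slc44a1 (0.088), Dennd4a (0.092) and Klhl24 (0.10). Those closest to Zbtb20 after Nfib were Tmf1 and Canx (0.092 each), and those closest to Nfib after Zbtb20 were Gsk3b (0.067) and Canx (0.069). Nfia was closest to Homer2, Zfyve9 and Zkscan1 (0.10 to 0.11), and Nfix to Prag1, Tmem8b and Mid1ip1 (0.10 to 0.11). Tbr1 was closest to Acbd4 (0.15), Acad12 and Stim1 (0.17 each), Bcl11b to Sox9 (0.12), Bloc1s2 (0.14) and Pcdha11 (0.15), and Dcx to Pcdh11x (0.12), Taf7 (0.21) and Hist1h2be (0.23). The neighbours of Nfix had 54.1% to 56.6% GC and those of Dcx 39.6% to 44.5%, near the 57.9% and 41.6% of the genes themselves, while those of Bcl11b (55.4%) had 47.1% to 49.3%. Without Kmt2a+/+ replicate 1, 12 of the 24 neighbours were again among the closest 3, including Nfib for Zbtb20 and Zbtb20 for Nfib, while 0 of 3 were for Nfix.

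The promoters of the members differed in CpG content, shown because the CXXC domain of KMT2A binds unmethylated CpG. RefSeq (GRCm38.p6) gave 14 promoters, 250 bases before to 50 after a transcript start, for 9 of the 10 genes. The motif CG, the same on both strands, occurred 26 times in the Neurod1 promoter, 25 times in the richer of 2 Prox1 promoters and 3 times in that of Zbtb20, against a median of 7 over 32851 promoters. Of all promoters, 16.9% held at least as many as Neurod1 and 18.4% at least as many as Prox1. The other promoters held 14 (Prox1), 13, 9, 4 and 2 (Nfix), 10 (Eomes), 9 (Bcl11b), 7 (Tbr1), 3 and 3 (Dcx) and 2 (Nfia). The CpG-rich promoters thus included those of the lowly expressed Neurod1 and the abundant Prox1. The only promoter given for the highly expressed Zbtb20 was poor in CpG, but it lies within the gene, which has 21 annotated transcripts. Which starts were used in these cells was not measured. The 250 bases before the start are given for Prox1 (chr1:190170828-190171077, minus strand, with 20 CG) and Zbtb20 (chr16:43247034-43247283, plus strand, with 3 CG), with CG in capitals. Binding and methylation were not measured in these libraries.
Prox1: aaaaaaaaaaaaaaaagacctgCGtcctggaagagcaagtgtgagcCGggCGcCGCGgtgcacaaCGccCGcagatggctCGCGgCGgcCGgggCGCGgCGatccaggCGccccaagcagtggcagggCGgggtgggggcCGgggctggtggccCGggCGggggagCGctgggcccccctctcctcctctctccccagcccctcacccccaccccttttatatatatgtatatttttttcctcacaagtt
Zbtb20: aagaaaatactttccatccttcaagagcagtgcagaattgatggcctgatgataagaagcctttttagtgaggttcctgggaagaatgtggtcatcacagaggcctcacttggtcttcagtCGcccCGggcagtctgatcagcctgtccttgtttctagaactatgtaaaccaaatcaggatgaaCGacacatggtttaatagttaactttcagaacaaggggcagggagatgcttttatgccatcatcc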

How the data were processed

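Poly(A) RNA of 12 mNPC libraries was analysed, with genotypes and replicate numbers taken from the labels. The authors pseudoaligned reads with kallisto 0.48.0, collapsed transcripts to genes by means of tximport and biomaRt (mm10, GRCm38), and deposited an estimated count for each gene, a whole number without normalization. Library totals were 18280008 to 28596919. Floors of 3 counts cover counting error only, and 95% intervals come from the edgeR fit and include the spread between libraries. Ensembl identifiers were matched to GENCODE M21, which gave 18718 of 18911 a symbol (99.0%).

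The filter kept 17076 genes whose total exceeded 10 and that had counts in 2 libraries or more. After TMM scaling, edgeR 4.0.16 (R 4.3.3) fitted genotype alone to all 12 libraries by quasi-likelihood, and F-tests were adjusted by Benjamini-Hochberg at 0.05. Since a count test had been planned, the values, already whole, entered as deposited. Alternatives were DESeq2 1.42.0, limma-voom (limma 3.58.1), other filters, a replicate block, fewer genotypes in the fit, and each library left out. A GC offset (without the block and with it) and profiles, gene lists and fits of all comparisons without Kmt2a+/+ replicate 1 were chosen after seeing the data.

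Levels per kilobase used principal transcripts, and log2 CPM a prior count of 2. The members and gene lists were chosen with earlier results of these data known. The rule for named genes took every member, for each with a mean of at least 50 normalized counts the 3 genes with the closest profile, and up to 3 genes per list with the smallest p. Some listed genes are not reported here. Replicates differed by more than sampling noise (chi-square per degree of freedom at least 9.55).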

Additional observations from a re-analysis of the deposited data

How the results depend on the processing

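Under every alternative and with each library left out, 0 of the 10 genes passed an adjusted p of 0.05 in each comparison. Asking for 10 or more counts in each library kept 7 of the 10. Of 805 alternative log2 fold changes, 727 kept their direction and 78 changed sign, and 0 moved across the threshold. The cause was not tested. Over all genes at an adjusted p under 0.05, beside 0 in each comparison by edgeR, DESeq2 had 3 to 10 and limma-voom up to 2. Without Kmt2a+/+ replicate 1, all genes at an unadjusted p under 0.05 for Kmt2a+/LSL against Kmt2a+/+ numbered 1521 in place of 306, and 2 passed the adjusted p, with 0 of the 10 among either.

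Replicate numbers did not meet the rule for pairing, which asks for a correlation over 0.1 in every same-numbered pair. Same-numbered libraries of different genotypes correlated at a mean of 0.084 (18 pairs, -0.072 to 0.416), and differently numbered ones at -0.041. The 3 same-numbered pairs of Kmt2a+/+ with Nes-Cre+/- Kmt2a+/LSL, which are not compared directly, lay at 0.142 to 0.416, and 6 of 12 libraries correlated best with their own number. With the replicate block, 0 of 10 genes passed in each comparison, and all genes at an unadjusted p under 0.05 numbered 246 of 17076 for Kmt2a+/LSL against Kmt2a+/+, beside 306 without it.

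For Kmt2a+/LSL against Kmt2a+/+, the sign changed under limma-voom for Bcl11b (-0.036), Dcx (0.094), Nfib (0.18), Nfix (-0.31), Prox1 (0.014) and Zbtb20 (0.17), and under the GC offset without and with the block for Bcl11b (-0.24 and -0.22) and Nfix (-0.075 and -0.072). With libraries left out the range was -0.14 to 0.26 for Bcl11b, -0.60 to 0.20 for Dcx, -0.35 to 0.012 for Nfia, -0.42 to 0.25 for Nfib, -0.31 to 0.48 for Nfix, -0.27 to 0.092 for Prox1 and -0.42 to 0.26 for Zbtb20.

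For Nes-Cre+/- Kmt2a+/LSL against Kmt2a+/LSL, limma-voom gave 0.044 for Nfix and -0.0027 for Zbtb20, and the GC offset 0.022 for Nfix, with the block 0.027 for Nfix and 0.0031 for Bcl11b. Ranges were -0.26 to 0.12 for Bcl11b, -0.35 to 0.57 for Neurod1, -0.16 to 0.15 for Nfix and -0.092 to 0.24 for Zbtb20. Against Nes-Cre+/- Kmt2a+/+, limma-voom gave -1e-04 for Prox1, and ranges were -0.31 to 0.0086 for Nfix, -0.040 to 0.24 for Prox1 and -0.010 to 0.32 for Zbtb20.

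For Nes-Cre+/- Kmt2a+/+ against Kmt2a+/+, limma-voom gave -0.28 for Eomes, 0.0076 for Nfia, 0.19 for Nfib, -0.091 for Nfix and 0.13 for Zbtb20. The GC offset gave -0.15 for Bcl11b, and with the block -0.095 for Bcl11b and -0.011 for Eomes. Prox1 was -0.028 with DESeq2 size factors, -0.027 with DESeq2's Wald test and -0.0082 with the compared genotypes alone. Ranges were -0.59 to 0.27 for Dcx, -0.15 to 0.45 for Neurod1, -0.32 to 0.031 for Nfia, -0.44 to 0.22 for Nfib, -0.17 to 0.62 for Nfix, -0.17 to 0.19 for Prox1, -0.016 to 0.82 for Tbr1 and -0.50 to 0.17 for Zbtb20.

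For the difference of the LSL effect with and without nestin-Cre, limma-voom gave -0.14 for Nfib, 0.14 for Nfix, -0.014 for Prox1 and -0.13 for Zbtb20, the replicate block -0.091 for Neurod1, and the GC offset 0.12 for Bcl11b, with the block 0.098 for Bcl11b, -0.12 for Neurod1 and 0.0036 for Nfix. Ranges were -0.18 to 0.68 for Eomes, -0.51 to 0.42 for Neurod1, -0.096 to 0.58 for Nfib, -0.65 to 0.12 for Nfix, -0.012 to 0.35 for Prox1 and -0.10 to 0.59 for Zbtb20. Depth limited Neurod1 and Eomes, with at most 11 and 29 estimated counts per library.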
